A study of Rattus norvegicus with 16 samples.

Results

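Nr1d1 (ENSRNOG00000009329), Nr1d2 (ENSRNOG00000046912) and Dbp (ENSRNOG00000021027) were followed by Ensembl identifier through 16 RNA-Seq libraries of the fetal rat suprachiasmatic nuclei (SCN), the brain's central circadian clock. They were 3 of the 32883 genes in the table, and all 3 were among the 13685 genes kept by a filter on low counts (1.5 CPM, the count scaled to a common library size, or more in 3 or more libraries). They were taken by identifier, as both REV-ERB receptors and a clock output gene. The libraries came from Wistar dams kept in constant darkness after surgery at embryonic day 7. Group A dams underwent sham surgery and were fed ad libitum. Group B dams carried a lesion of the SCN and, from embryonic day 11, had food for 8 h a day. The fetuses themselves were not operated on, so Group B differed from Group A in the lesion and in the feeding regime at once, and the effects of these cannot be told apart. Each group gave 8 libraries, 1 for each circadian time from CT0 to CT21 at 3-h steps, each pooled from the SCN of several fetuses of 1 litter. Per the labels the pools held 8 fetuses, while the protocol allowed 5 to 10 in Group B. CT12 was the onset of locomotor activity in Group A and of feeding-related activity in Group B, and CT12 to CT24 is called subjective night. The labels give embryonic day 17, whereas the study places the fetuses at about embryonic day 19 and spreads the 8 times over about 1 day of gestation. Circadian time, litter and fetal age therefore cannot be told apart at a single time.

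Nr1d1 and Nr1d2 encode REV-ERBα and REV-ERBβ, nuclear receptors that bind heme and repress transcription from ROR elements, among them those of Bmal1 and Clock. Dbp encodes a PAR bZIP activator that binds D-boxes and is used as a readout of clock output. In the adult clock all 3 are driven through E-boxes by BMAL1 and CLOCK and repressed by PER and CRY, and their transcripts cycle with large amplitude, with a peak in the daytime in the adult SCN. REV-ERB closes the second loop of the clock by setting the rhythm of Bmal1.

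The bases before the RefSeq transcription starts of the 3 genes are shown because E-boxes and their variants are the elements through which the adult clock drives these genes. The windows, each of 250 bases, were taken from RefSeq in build GRCr8 (the counts were made on an older build, rn6) and are printed 5′ to 3′ on the strand of the gene. The Nr1d1 windows lie on the minus strand at chr10:84231813-84232062 and chr10:84229455-84229704, before 2 annotated starts. The Nr1d2 window is chr15:9954784-9955033 and the Dbp window is chr1:105312006-105312255, both on the plus strand. Capitals mark the motifs found.
Nr1d1 start 1: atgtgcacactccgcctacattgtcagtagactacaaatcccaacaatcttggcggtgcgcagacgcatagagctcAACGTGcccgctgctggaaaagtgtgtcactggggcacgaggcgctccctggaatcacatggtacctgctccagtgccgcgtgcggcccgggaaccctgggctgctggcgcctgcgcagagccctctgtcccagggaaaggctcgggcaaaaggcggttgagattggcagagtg
Nr1d1 start 2: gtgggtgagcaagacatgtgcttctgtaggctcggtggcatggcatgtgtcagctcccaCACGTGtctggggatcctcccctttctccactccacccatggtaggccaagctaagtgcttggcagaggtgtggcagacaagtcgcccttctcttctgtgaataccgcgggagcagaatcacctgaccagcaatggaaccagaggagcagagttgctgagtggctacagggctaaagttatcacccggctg
Nr1d2: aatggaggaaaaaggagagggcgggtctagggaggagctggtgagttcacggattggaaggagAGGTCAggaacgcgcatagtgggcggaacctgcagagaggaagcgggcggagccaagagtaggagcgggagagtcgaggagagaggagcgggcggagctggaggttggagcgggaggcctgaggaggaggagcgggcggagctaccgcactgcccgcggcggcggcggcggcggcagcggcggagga
Dbp: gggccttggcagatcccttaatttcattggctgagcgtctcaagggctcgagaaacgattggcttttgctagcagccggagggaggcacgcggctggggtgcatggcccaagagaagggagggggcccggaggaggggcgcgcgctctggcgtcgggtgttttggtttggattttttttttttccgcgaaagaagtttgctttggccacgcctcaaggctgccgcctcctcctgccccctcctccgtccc

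The motifs searched on both strands were the E-box CACGTG, the E-prime box CACGTT, the core AGGTCA of ROR elements, the D-box TTATGTAA and the cyclic AMP response element TGACGTCA; at no place did matches to different motifs overlap. The first Nr1d1 window held 1 E-prime box at bases -174 to -169 from the start, printed there as its reverse complement AACGTG. The second Nr1d1 window held 1 E-box at -191 to -186. The Nr1d2 window held 1 AGGTCA at -187 to -182, and the Dbp window held none of the 5 motifs. Of 33469 windows of the same length from 27457 genes, 5.59% held CACGTG, 4.07% CACGTT, 14.1% AGGTCA, 0.828% TTATGTAA and 1.59% TGACGTCA. These matches describe letters in short windows, and binding was not measured. Bases outside the windows, introns among them, were not searched, so a window without a motif does not mean a gene without one. In the same annotation Nr1d1 overlaps Thra, a thyroid hormone receptor gene on the opposite strand. The library kit marks strand, but whether the counting used it is not given in the sources used here, so Nr1d1 counts may include reads of Thra. Sphk2 is the nearest neighbour of Dbp, without overlap. No gene lies within 10 kb of Nr1d2 in that annotation.

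The libraries held between 10047500 and 18738585 counts, and the deepest was CT9 of Group B. The 3 genes were sampled by 81 to 406 counts a library. Nr1d1 had 81 to 185, Nr1d2 153 to 406 and Dbp 92 to 203. CPM values below are scaled by TMM, which allows for differences in library composition, and are not corrected for gene length, so levels are not compared between genes. The table pairs no Ensembl identifier with a symbol. Markers of the SCN and of other cell types, and the other clock genes, were not analysed here. Fewer cells of a type and less RNA per cell cannot be told apart in these pools.

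Nr1d1 was highest at CT21 and lowest at CT0 in both groups. In Group A the subjective day libraries (CT0, CT3, CT6 and CT9) held 7.13, 10.7, 8.91 and 7.39 CPM, and the subjective night libraries (CT12, CT15, CT18 and CT21) held 9.22, 11.4, 9.52 and 14.4 CPM. In Group B the day values were 9.06, 9.99, 10.3 and 9.73 CPM and the night values 12.0, 11.8, 12.4 and 13.9 CPM. All 4 night libraries of Group B lay above all 4 day libraries, while in Group A day and night overlapped, with 2 of the 4 night libraries above every day library. The highest Nr1d1 level was 2.02 times the lowest in Group A and 1.53 times in Group B. The variation between libraries, 24% of the mean in Group A and 14.6% in Group B, was larger than the 9.52% and 8.73% that counting error alone would give.

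Nr1d2, the paralog, was also lowest at CT0 in both groups. Its day values in Group A were 13.5, 20.2, 20.7 and 18.1 CPM, and its night values 18.6, 19.99, 20.7 and 24.2 CPM. The CT0 library stood lowest, CT21 stood highest, and the 6 libraries between them spanned 18.1 to 20.7 CPM. In Group B the day values were 18.6, 19.7, 19.7 and 21.8 CPM and the night values 26.2, 22.9, 23.3 and 25.3 CPM, with no overlap of day and night. The Nr1d2 peak was at CT12 in Group B. Its highest level was 1.80 times the lowest in Group A and 1.41 times in Group B. The coefficient of variation was 15.6% and 12.4%, against 6.69% and 6.19% from counting.

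Dbp showed no detectable course common to both groups. Its Group A values were 14.0, 10.4, 10.1 and 9.48 CPM in the day and 9.22, 10.9, 11.6 and 11.2 CPM in the night. Its Group B values were 9.16, 13.1, 13.3 and 10.9 CPM in the day and 12.5, 13.7, 11.3 and 11.8 CPM in the night. CT0 was thus the highest Dbp library of Group A and the lowest of Group B, and day and night overlapped in both groups. The highest level was 1.52 times the lowest in Group A and 1.502 times in Group B. The coefficient of variation of Dbp, 13.9% and 12.7%, was nearer to its counting error of 8.90% and 8.43% than that of Nr1d1 or Nr1d2.

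**Figure D1:**
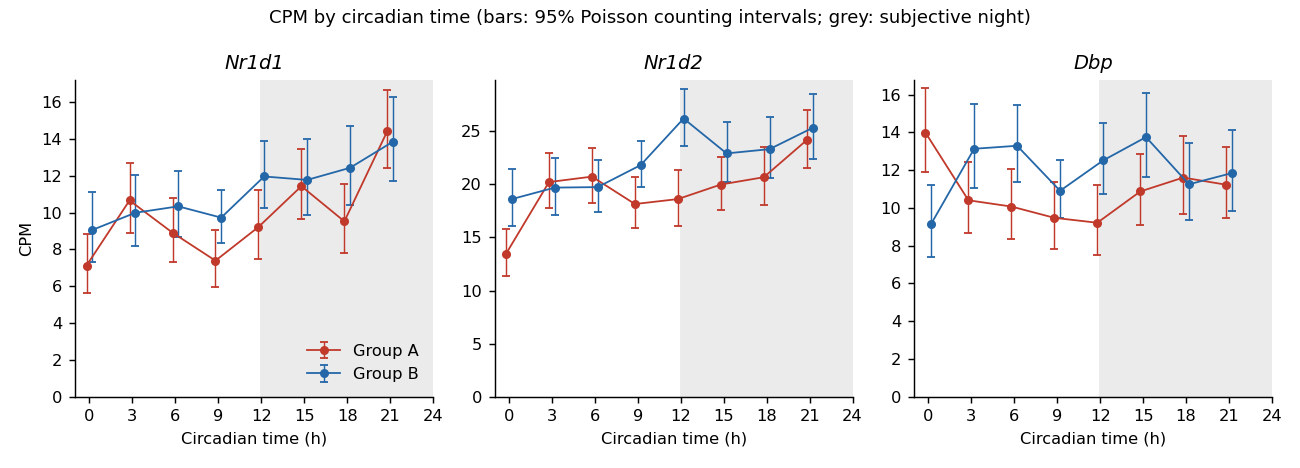
CPM of Nr1d1, Nr1d2 and Dbp (vertical axes) against circadian time in h (horizontal axes) for Group A in red and Group B in blue, 1 library per point, with 95% Poisson intervals that cover counting error only; grey marks subjective night. Nr1d1 and Nr1d2 are lowest at CT0 in both groups, and Dbp at CT0 is 14.0 CPM in Group A and 9.16 CPM in Group B.

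Whether the 3 transcripts differed between subjective night and subjective day was tested first with edgeR's quasi-likelihood test on the means of the 4 cells (day and night of each group, 4 libraries each), with Benjamini-Hochberg adjustment over the 13685 genes. Nr1d1 averaged 8.52 ± 1.63 CPM in the day and 11.1 ± 2.39 CPM in the night of Group A (SD, n = 4), and 9.78 ± 0.542 and 12.5 ± 0.941 CPM in Group B. Its night level over both groups was 1.29-fold its day level, a log2 difference of 0.37 (SE 0.11, 95% interval 0.15 to 0.60, unadjusted p = 0.0026, adjusted p = 0.137 by edgeR). Nr1d2 averaged 18.1 ± 3.31 and 20.9 ± 2.37 CPM in Group A and 19.97 ± 1.34 and 24.4 ± 1.58 CPM in Group B (SD, n = 4). Its log2 difference was 0.25 (SE 0.083, 95% interval 0.07 to 0.42, unadjusted p = 0.0081, adjusted p = 0.215 by edgeR). Dbp averaged 10.99 ± 2.04 and 10.7 ± 1.054 CPM in Group A and 11.6 ± 1.97 and 12.3 ± 1.07 CPM in Group B, and its log2 difference was 0.03 (SE 0.10, 95% interval -0.19 to 0.24, adjusted p = 0.943 by edgeR).

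None of the 3 genes passed the adjusted threshold of 0.05 for night against day, which 0.380% of all genes tested did. At an unadjusted p under 0.05 Nr1d1 and Nr1d2 were higher in the night, as were 6.30% of all genes. DESeq2 gave adjusted p-values of 0.0614 for Nr1d1 and 0.132 for Nr1d2. An exact two-sided permutation of day and night within each group, with 4900 arrangements and no adjustment, gave p = 0.0020 for Nr1d1, 0.0073 for Nr1d2 and 0.705 for Dbp. The median size of the night difference over all genes was 0.07 on the log2 scale. With a linear term from CT0 to CT21 added to the fit, an alternative chosen after the data had been seen, the night difference was 0.09 for Nr1d1 and -0.04 for Nr1d2 (unadjusted p = 0.669 and 0.807, adjusted p = 0.99995 for both, by edgeR). Every night library is also later on that line than every day library. The fit can therefore hardly separate night from the line, and it does not show that the night difference is absent.

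**Figure D2:**
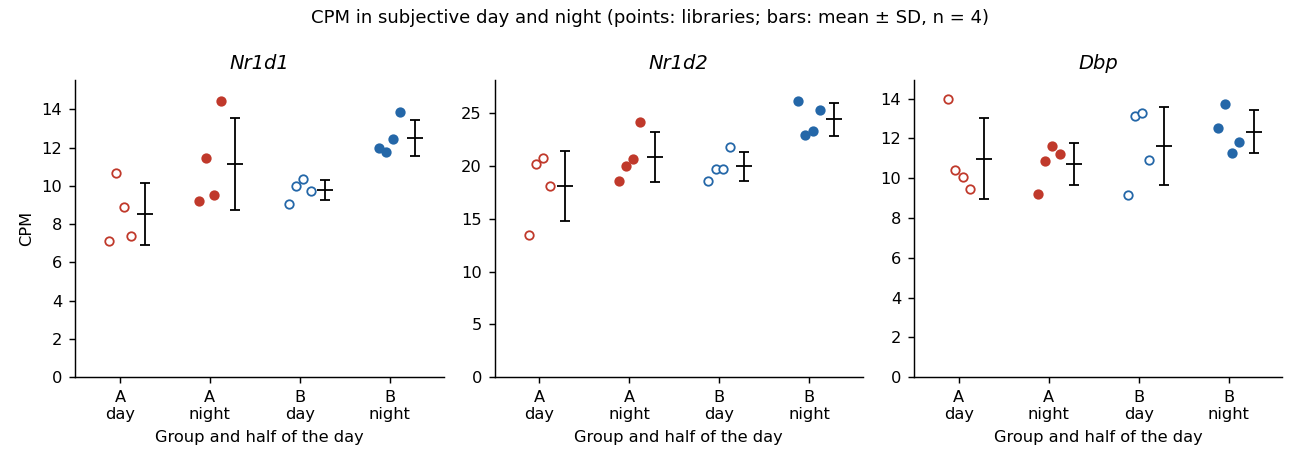
CPM (vertical axes) of each gene in subjective day (open circles) and subjective night (filled circles) for Group A in red and Group B in blue; points are libraries and black bars the mean ± SD of 4. In Group B, night lies wholly above day for Nr1d1 and Nr1d2, whereas Dbp overlaps in both groups.

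Within the groups the night difference of Nr1d1 was 0.39 in Group A (95% interval 0.07 to 0.71, adjusted p = 0.506) and 0.35 in Group B (0.04 to 0.67, adjusted p = 0.503), both on the log2 scale by edgeR. For Nr1d2 the corresponding values were 0.20 (-0.05 to 0.45, adjusted p = 0.736) and 0.29 (0.04 to 0.53, adjusted p = 0.464). Dbp gave -0.03 in Group A (-0.34 to 0.27, adjusted p = 0.979) and 0.09 in Group B (-0.22 to 0.39, adjusted p = 0.911). None passed the adjusted threshold within a group, where 0% of all genes did in Group A and 0.00731% in Group B. At an unadjusted p under 0.05 Nr1d1 was higher at night in Group A, with 4.03% of all genes, and Nr1d1 and Nr1d2 were higher in Group B, with 4.82%. These unadjusted calls were not stable. With each of the 16 libraries left out in turn, that of Nr1d1 in Group A held 13 times (lost without CT0, CT9 or CT21 of that group), that of Nr1d1 in Group B 13 times (lost without its CT0, CT9 or CT21), and that of Nr1d2 in Group B 14 times (lost without its CT0 or CT12). Both Group B calls were also lost without CT0 and CT12, both Nr1d1 calls without both CT0 libraries, and that of Nr1d1 in Group B after thinning. Complete separation of night above day was found for 0 of the 3 genes in Group A, where 1.83% of all genes showed it, and for Nr1d1 and Nr1d2 in Group B, where 2.92% did. The exact permutation p was then 0.0286 for each, the smallest that 4 against 4 libraries allow. In Group A it was 0.114 for Nr1d1, 0.286 for Nr1d2 and 0.914 for Dbp. The night difference itself did not differ detectably between the groups (Group B minus Group A -0.04 for Nr1d1, 95% interval -0.49 to 0.41; 0.09 for Nr1d2, -0.26 to 0.43; 0.12 for Dbp, -0.31 to 0.55; adjusted p = 0.997 in each case by edgeR, with 0% of all genes called).

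The Group A estimates leaned on single libraries. Without CT21 of Group A, the Nr1d1 night difference in that group was 0.24, and that of Nr1d2 was 0.12. Without CT0 of Group A these values were 0.32 and 0.08, and that of Dbp turned from -0.03 to 0.10.

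A straight line over the sampled times was also fitted to each gene, a test chosen after the data had been seen. Its span runs from the first to the last time, so its size cannot be set against a difference of day and night means. From CT0 to CT21 the fitted line of Nr1d1 spanned 0.61 on the log2 scale, upward, or 1.52-fold (SE 0.15, 95% interval 0.29 to 0.93, adjusted p = 0.0639 by edgeR). That of Nr1d2 spanned 0.45, upward, or 1.37-fold (SE 0.11, 0.22 to 0.69, adjusted p = 0.0643 by edgeR). The Dbp line had an interval of -0.32 to 0.32 around a span near 0. None of the 3 lines passed the adjusted threshold in edgeR, while 0.570% of all genes did. At an unadjusted p under 0.05 Nr1d1 and Nr1d2 had rising lines, as did 6.87% of all genes. Both passed with DESeq2, with adjusted p-values of 0.0195 for Nr1d1 and 0.0180 for Nr1d2, and DESeq2 called 2.06% of all genes. Nr1d1 also passed in edgeR when CT3 of Group A was left out (0.71, adjusted p = 0.0326), as did 54 of the 13651 genes kept in that run. Without CT0 of Group A the Dbp line was 0.17, and without CT0 of Group B it was -0.12. Fetal age over the sampled day and circadian time cannot be told apart in such a line.

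**Figure D3:**
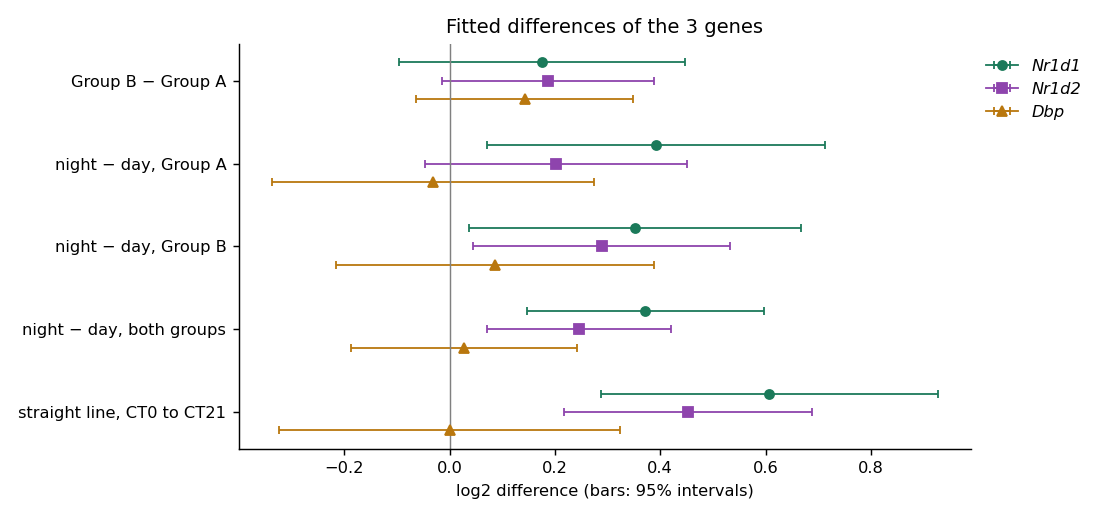
Fitted log2 differences (horizontal axis) with 95% intervals from edgeR for Nr1d1 (green circles), Nr1d2 (purple squares) and Dbp (orange triangles), for the comparisons named on the vertical axis. The intervals of Nr1d1 and Nr1d2 for the night difference over both groups and for the straight line lie above 0, those of Dbp and all those of the group difference include 0, and no adjusted p was under 0.05.

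Rhythms were next fitted as a cosine of 24 h, a simple curve with the period of the circadian day. The cosine common to both groups had a peak-to-trough size of 0.43 on the log2 scale for Nr1d1 (SE 0.17), with its peak at CT18.4 (SE 1.49 h, adjusted p = 0.434 by edgeR). For Nr1d2 it was 0.25 (SE 0.13) with the peak at CT15.7 (SE 1.97 h, adjusted p = 0.637). For Dbp it was 0.12 (SE 0.14), smaller than its error, at CT21.4 (SE 4.49 h, adjusted p = 0.909). None of the 3 genes passed, against 0.343% of all genes. At an unadjusted p under 0.05 none passed with all libraries in edgeR, against 12.0% of all genes. Nr1d1 did in DESeq2 (adjusted p = 0.395) and, in edgeR, without CT0, CT3 or CT18 of Group A, without CT0 of Group B and without both CT0 libraries (0.51). The median peak-to-trough size over all genes, which cannot be below 0, was 0.16.

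With a cosine for each group, the size for Nr1d1 was 0.49 (SE 0.25) in Group A with the peak at CT19.5 and 0.41 (SE 0.24) in Group B at CT17.2. Nr1d2 had 0.15 (SE 0.19) at CT17.3 and 0.37 (SE 0.19) at CT15.2. Dbp had 0.43 (SE 0.19) at CT22.0 in Group A and 0.19 (SE 0.19) at CT10.9 in Group B. The adjusted p-values lay between 0.711 and 0.945 in Group A and between 0.634 and 0.870 in Group B, so none passed, against 0.00731% and 0.0950% of all genes. The cosines did not differ detectably between the groups (unadjusted p = 0.0993 for Dbp, 0.738 for Nr1d1 and 0.645 for Nr1d2, adjusted p = 0.810 to 0.957 by edgeR, with 0% of all genes called). Leaving out 1 library moved some unadjusted edgeR p-values under 0.05, with no adjusted p under the threshold. Without CT0 of Group A these were the Nr1d1 cosine of Group A (0.0220) and the Nr1d2 cosine of Group B (0.0430). The Nr1d2 difference was also under it there (0.0433), and that of Dbp in 1 other run (0.043). The Group A size of Nr1d1 was 0.22 without CT21 and 0.68 without CT0 of that group. That of Nr1d2 was 0.33 with its peak at CT22.4 without CT0 of Group A. The Group B size of Dbp ranged from 0.047 without CT0 to 0.35 without CT9 of that group. With a linear term in the fit the common cosine of Nr1d1 was 0.26 with its peak at CT1.88, and that of Nr1d2 0.27 at CT5.57 (adjusted p = 0.969 and 0.961 by edgeR). Over a single sampled day a line and a cosine overlap in part, so these sizes and peaks are poorly determined.

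Model selection, the approach by which the study sorted rhythmic transcripts, weighed 5 models by the Bayes information criterion weight (BICW), namely no rhythm, Arhy (Group A rhythmic and Group B not), Brhy (the reverse), ABsync (both rhythmic and alike) and ABdiff (both rhythmic and unlike), and assigned a gene above a weight of 0.5. Nr1d1 was left unassigned, as were 18.8% of all genes, since ABsync (0.377) and no rhythm (0.372) were nearly level. Nr1d2 was assigned to no rhythm (0.561), with 0.199 on Brhy and 0.176 on ABsync. Dbp was assigned to no rhythm as well (0.610), with 0.260 on Arhy. The model without rhythm took 69.2% of all genes, ABsync 5.03%, Brhy 4.30% and Arhy 2.40%.

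Gaussian fits to CPM moved these weights. Nr1d1 remained unassigned with ABsync at 0.488, Nr1d2 became unassigned with 0.417 on no rhythm and 0.302 on Brhy, and Dbp reached 0.5001 on Arhy, just past the threshold. Over all genes the Gaussian fits left 27.5% unassigned and put 5.69% in Arhy. With both CT0 libraries left out, a choice made after the data had been seen, Nr1d1 was assigned to ABsync (0.574), Nr1d2 was unassigned (0.448 on no rhythm) and Dbp had 0.749 on no rhythm, while 3.92% of all genes were in ABsync and 19.9% were unassigned. For Nr1d1 no rhythm led, below the threshold, with edgeR dispersions (0.384, against 0.367 on ABsync) and with thinned libraries (0.474, against 0.271). It also led in most runs with a single library left out. Nr1d1 was assigned to no rhythm without CT9 (0.525) or without CT21 (0.570) of Group A. Nr1d2 fell below the threshold without CT0, CT3, CT6 or CT21 of Group A, with 0.346 to 0.497 on no rhythm.

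**Figure D4:**
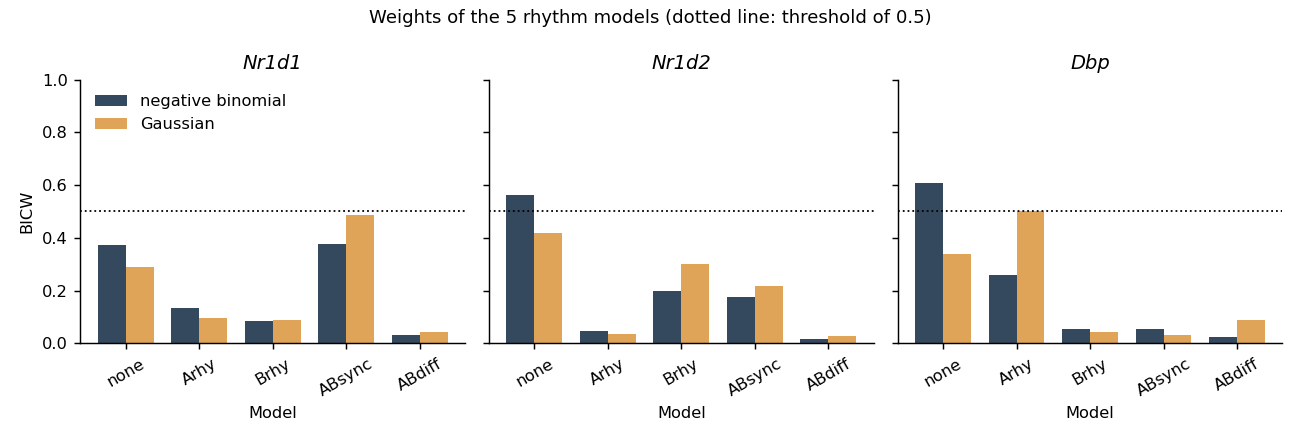
BICW (vertical axis) of the 5 rhythm models (horizontal axes) for each gene, from negative binomial fits to counts (dark) and Gaussian fits to CPM (yellow); the dotted line is the threshold of 0.5. Nr1d1 is split between ABsync and no rhythm, and Dbp moves from no rhythm (0.610) to Arhy (0.5001) with the Gaussian fit.

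Over all times, the difference between Group B and Group A did not exceed the spread between libraries for any of the 3 transcripts. Mean levels in Group A and Group B were 9.83 ± 2.36 and 11.1 ± 1.62 CPM for Nr1d1, 19.5 ± 3.04 and 22.2 ± 2.75 CPM for Nr1d2, and 10.9 ± 1.51 and 12.0 ± 1.52 CPM for Dbp (SD, n = 8). The log2 difference was 0.18 for Nr1d1 (95% interval -0.10 to 0.45, adjusted p = 0.889), 0.19 for Nr1d2 (-0.01 to 0.39, adjusted p = 0.876) and 0.14 for Dbp (-0.06 to 0.35, adjusted p = 0.889), all by edgeR. None passed the adjusted threshold (0% of all genes in edgeR and in DESeq2), nor an unadjusted p under 0.05 with all libraries (5.81% of all genes in edgeR). Some alternatives moved the unadjusted p, with no adjusted p under the threshold. The unadjusted p of Nr1d2 was under 0.05 with circadian time as a block, with libraries thinned to the smallest total, and without CT21 of Group A or without CT0, CT3 or CT6 of Group B. That of Dbp was under 0.05 without CT0 of Group A (0.20) and without both CT0 libraries (0.25, on the log2 scale). Each gene was higher in Group B at 6 of the 8 times, as were 16.6% of all genes at 6 or more. The exact permutation of the group labels over 12870 splits gave unadjusted p = 0.170 for Nr1d1, 0.0825 for Nr1d2 and 0.159 for Dbp. Changing the sign of the 8 differences at matched times gave exact p = 0.0547, 0.0469 and 0.273 in the same order, unadjusted. Libraries of the same time came from different litters. Over all genes kept, their deviations from the group mean correlated by only -0.16 to 0.14, so over the whole table this pairing has little basis. For the members themselves r at matched times was 0.80 for Nr1d1, 0.54 for Nr1d2 and -0.64 for Dbp. With circadian time as a block the unadjusted edgeR p was 0.0548, 0.0246 and 0.215 in the same order.

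The times at which Group A was higher were CT3 and CT21 for Nr1d1, CT3 and CT6 for Nr1d2, and CT0 and CT18 for Dbp. In subjective day alone the group difference was 0.20 for Nr1d1, 0.14 for Nr1d2 and 0.08 for Dbp, and in subjective night 0.16, 0.23 and 0.20 (adjusted p = 0.906 to 0.993 by edgeR, with none of the 3 and 0% of all genes called in day or in night). Single libraries moved these values by more than 1.5 times. In the day, Nr1d2 was 0.02 and Dbp 0.22 without CT0 of Group A, Dbp was 0.0086 without CT6 of Group B, and Nr1d1 was 0.32 without CT3 of Group A. In the night, Nr1d1 ranged from 0.08 without CT12 to 0.31 without CT21 of Group A. Without CT0 and CT12 the night values were 0.10, 0.14 and 0.13 in the same order of genes. Without both CT0 libraries Dbp was 0.31 in the day, at an unadjusted p under 0.05, as it was without CT0 and CT12. For the night difference of Nr1d2 the unadjusted edgeR p was 0.0264 without CT0 and 0.0220 without CT21 of Group A. It was 0.0264 without both CT0 libraries. That of Nr1d1 in the night was 0.0494 without CT21 of Group A. No adjusted p was under the threshold in these runs. Over day and night together, without CT21 of Group A, the group difference of Nr1d1 was 0.28 (adjusted p = 0.730, unadjusted p under 0.05). Without CT0 of Group A that of Nr1d2 was 0.12 (adjusted p = 0.932).

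Whether each transcript followed the same course in both groups was examined over the 8 circadian times by correlating log2 CPM of Group A with that of Group B, with exact permutation p-values adjusted over the 3 relations. For Nr1d1, r was 0.80 (p = 0.0162, adjusted 0.0487) and rho 0.74 (p = 0.0458, adjusted 0.137). For Nr1d2, r was 0.54 (p = 0.165, adjusted 0.165) and rho 0.33 (p = 0.428, adjusted 0.428). For Dbp, r was -0.64 (p = 0.0892, adjusted 0.134) and rho -0.36 (p = 0.389, adjusted 0.428). Without the 2 times farthest from the Group A median these values of r were 0.43, -0.46 and 0.02, so that each relation rested on those times. With CPM by library total the r of Nr1d1 was 0.78 and no longer passed (exact p = 0.0227, adjusted 0.0681). Leaving out single times gave 0.64 to 0.90 for Nr1d1, with the call lost for 6 of the 8 times (exact p = 0.135 and adjusted 0.202 without CT21), and CT0 alone carried the negative value of Dbp, which was -0.02 without it. The median r over all genes kept was 0.06, and 55.8% were above 0.

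Nr1d1 and Nr1d2 varied together across the 16 libraries. Their log2 CPM values correlated with r = 0.85 (permutation p = 1e-05, the smallest that 100000 resamples can give; adjusted over 3 pairs 3e-05) and rho = 0.81 (permutation p = 0.00031, adjusted 0.00093). Without the 2 libraries farthest from the Nr1d1 median r was 0.81. Within Group A it was 0.81 (exact p = 0.0160, adjusted 0.0480) and within Group B 0.86 (exact p = 0.00843, adjusted 0.0253). The rank correlation did not pass within Group A (rho 0.67, exact p = 0.0831, adjusted 0.249) and was 0.86 within Group B (exact p = 0.0107, adjusted 0.0321). Group A gave r = 0.58 without its 2 farthest libraries, and Group B gave 0.75. The permutations shuffled libraries over the sampled times, and those of all 16 libraries also over the groups. Their p-values therefore do not set a shared group level or slope apart from other covariation. After a group mean and a linear slope over the sampled times had been taken out of each gene, r was 0.59, a value that was not tested. Among the 9489 genes with a mean of at least 10 CPM, Nr1d2 ranked 2 in likeness to Nr1d1, and Nr1d1 ranked 4 in likeness to Nr1d2. The ratio of Nr1d1 to Nr1d2 counts averaged 0.473 ± 0.064 in the day and 0.531 ± 0.064 in the night of Group A, and 0.491 ± 0.034 and 0.513 ± 0.040 in Group B (SD, n = 4). The depth and the RNA content of a library are shared by all its genes, and their part in these values was not tested.

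No correlation of Dbp with either receptor was detected over all 16 libraries. Its r was 0.21 with Nr1d1 (permutation p = 0.427, adjusted 0.641) and 0.04 with Nr1d2 (permutation p = 0.884, adjusted 0.884), and rho was 0.30 (p = 0.257, adjusted 0.371) and 0.24 (p = 0.371, adjusted 0.371) over the 16 libraries. Without the 2 farthest libraries r was 0.59 and 0.48. The CT0 library of Group A, lowest of all 16 in both receptors and highest in Dbp, set these values. Without it, r was 0.52 with each (permutation p = 0.0471 and 0.0466, adjusted 0.0471 for both). Dbp ranked 2387th of the 9489 genes in likeness to Nr1d1 and 4267th to Nr1d2. The gene most like Nr1d1 was ENSRNOG00000016244 (r = 0.87), the gene most like Nr1d2 was ENSRNOG00000019120 (r = 0.89) and the gene most like Dbp was ENSRNOG00000011555 (r = 0.83), each over 16 libraries. Their symbols are not paired with these identifiers in the tables used here.

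**Figure D5:**
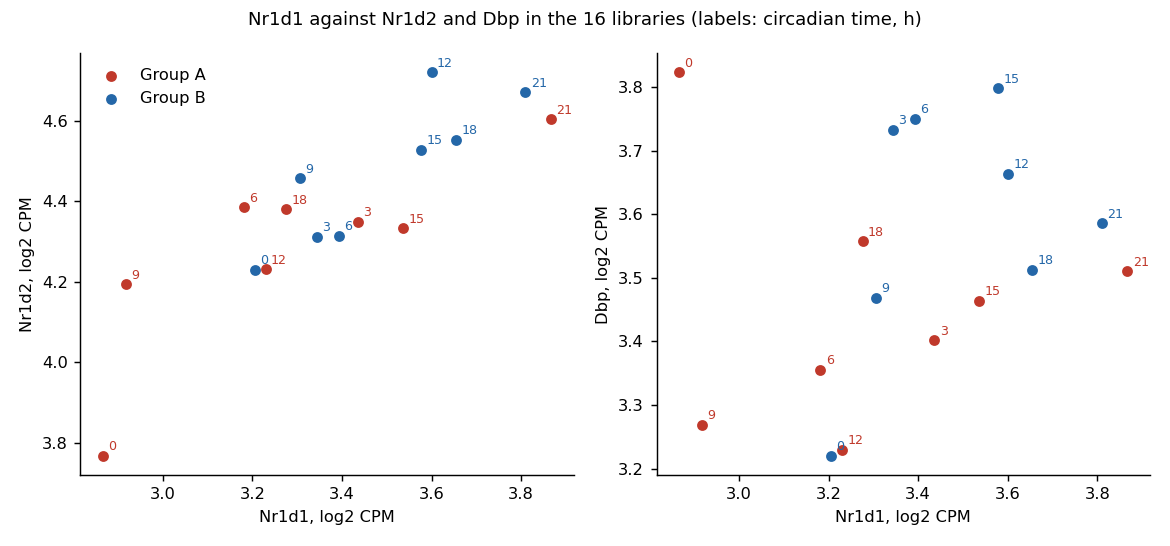
Log2 CPM of Nr1d2 (left) and Dbp (right) on the vertical axes against Nr1d1 on the horizontal axes in the 16 libraries with Group A in red and Group B in blue, labelled by circadian time in h. Nr1d2 climbs with Nr1d1 (r = 0.85), and on the right the CT0 library of Group A stands at the upper left, away from the rest.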

How the data were processed

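Transcripts of fetal SCN pools were measured by RNA-Seq in 16 libraries, 1 per group and circadian time. The authors mapped reads to rn6 with HISAT2 2.1.0, used Salmon and StringTie for counts and FPKM, and deposited whole-number counts for each Ensembl gene, neither normalized nor filtered. Which of these programs made the deposited counts is not given in the sources used here. The labels' protocol gives rRNA depletion, polyA enrichment and a stranded kit. Column names give the group letter and the time, as do the labels.

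Counts were fitted over the whole table with edgeR 4.0.16 in R 4.3.3 (TMM, quasi-likelihood test, Benjamini-Hochberg adjustment over the 13685 genes that reached 1.5 CPM in 3 or more libraries, threshold 0.05). DESeq2 1.42.0 was an alternative and gave the dispersions for a model selection that follows dryR. Permutation tests used SciPy 1.17.1, two-sided, on log2 CPM with a prior count of 2. The fits were also run on simulated data with effects larger than those fitted here for the 3 genes, so that run says nothing on power at these sizes. Libraries of a group come from different litters at different times, and the error of a rhythm is the scatter around its curve. The depth of 10047500 to 18738585 counts sets the counting error, and Poisson intervals cover that error only. Motifs were searched in RefSeq sequence (GRCr8).

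The members and the lists were chosen with earlier results of these data known. The genes named are the 3 members and, of the 3 genes most like each by correlation, the first. Lists of other clock genes, neighbouring genes and cell type markers were also set, but they need symbols and were not analysed here. Alternatives were other size factors, no filter or a stricter one, thinned libraries, each library left out, covariates, single groups, and times at the borders of day and night left out.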

Additional observations from a re-analysis of the deposited data

How the results depend on the processing

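No member passed the adjusted threshold in the comparisons made with edgeR, and this held under all alternatives that gave an adjusted p-value except for the straight line, where DESeq2 gave 0.61 for Nr1d1 and 0.45 for Nr1d2 on the log2 scale, both past it, and edgeR without CT3 of Group A gave 0.71 for Nr1d1. Without CT3 of Group A, 54 of 13651 genes passed for the line in edgeR. Leaving out each library gave 0.49 to 0.71 for that Nr1d1 line. The lowest adjusted p-value among the alternatives that stayed above the threshold was 0.0511, for the Nr1d2 line in edgeR without CT3 of Group A. The cause of these shifts was not tested. DESeq2 gave no adjusted p-value for Nr1d1 and Dbp in the cosine of Group A and in the night difference of Group B.

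Values of Dbp near 0 changed sign. Its line was -0.0013 with DESeq2 size factors, -0.0012 with DESeq2 tests and -0.12 to 0.17 when single libraries were left out, and its night difference was then -0.017 to 0.095. In Group A its night difference was 0.031 with thinned libraries, 0.17 without CT0 and CT12, 0.10 without both CT0 libraries, and -0.094 to 0.10 when single libraries were left out. In Group B the corresponding values were -0.012 without CT0 and CT12, -0.0053 without both CT0 libraries, and -0.0034 to 0.16. The difference between groups in the Dbp night effect was -0.18 without CT0 and CT12, -0.11 without both CT0 libraries and -0.019 to 0.19 with single libraries left out. That of Nr1d1 was 0.0056 without both CT0 libraries and -0.16 to 0.11, and the Nr1d2 night difference was -0.039 with a linear term. The Nr1d2 and Dbp correlation ranged from -0.041 to 0.52, and that of Nr1d1 and Dbp from 0.072 to 0.52.

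The weight of no rhythm was 0.417 for Nr1d2 and 0.338 for Dbp with Gaussian fits, and 0.448 for Nr1d2 without both CT0 libraries. It ranged from 0.132 to 0.570 for Nr1d1 and from 0.346 to 0.656 for Nr1d2 when single libraries were left out. The r between the Nr1d1 profiles was 0.78 with CPM by library total plus 0.5, no longer past the threshold, and 0.64 to 0.90 without single times.

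Counts over all genes moved more. For the cosine common to both groups 47 genes became 266 with DESeq2, 7 without both CT0 libraries, 1 with a linear term and 1 to 92 without single libraries. For Group A, 1 gene became 3 without a filter, 26 with DESeq2, 0 after thinning, 0 with the group fitted alone and 0 to 3. For Group B, 13 became 21 without a filter, 133 with DESeq2, 7 after thinning, 5 with the group alone, 4 without both CT0 libraries and 1 to 24. For the difference of the cosines, 0 became 4 with DESeq2, 2 without both CT0 libraries and 0 to 2. For night against day, 52 became 118 without a filter, 211 with DESeq2, 6 without CT0 and CT12, 2 without both CT0 libraries, 0 with a linear term and 2 to 104. For the straight line, 78 became 282 with DESeq2 and 44 to 129.

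Libraries of the same circadian time in both groups come from different litters. Over all genes kept, their deviations correlated by -0.16 to 0.14, over 0.1 in 2 of 8 pairs. The times were therefore not taken to pair the libraries, although the Nr1d1 and Nr1d2 profiles correlated at matched times by 0.80 and 0.54. With circadian time as a replicate block the group difference was 0.20 for Nr1d1, 0.19 for Nr1d2 and 0.15 for Dbp, with no adjusted call changed and the unadjusted p of Nr1d2 moved under 0.05, and 1 of 8 libraries correlated best with its own time. With 81 to 406 counts per gene and library, counting error limits each single value.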
